A study of Mus musculus with 12 samples.

Results

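Notch receptors, their ligands, the sugar transferase Lfng and the Hes factors were compared between the rostral and the caudal end of the mouse neocortex in embryos of the stage E13.5. The genes were Notch1, Notch2, Notch3, Dll1, Dll3, Jag1, Lfng, Hes1, Hes5 and Hes6, chosen by name from the pathway. Each of these 10 genes was matched by its symbol to 1 probe, so they were 10 of the 15063 genes named on an array of 21998 probes, and 9 of them could be tested. RNA of the rostral and of the caudal part of the neocortex competed on arrays that read a green dye, Cy3, and a red dye, Cy5. The animals were outbred MF1 mice (3 pools) and inbred C57 mice (3 pools), with no treatment and no other allele given, and per the labels a pool held tissue of 3 embryos. Each pool was run on 2 arrays with the dyes exchanged. All values below are log2 ratios, rostral over caudal, so a value above 0 means more rostral RNA and a value of 1 means a ratio of 2. In such whole-tissue RNA, fewer cells of a type and less RNA per cell cannot be told apart, and a ratio carries no level of its own.

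Notch signalling passes between touching cells. A ligand of the Delta or Jagged family on one cell binds a Notch receptor on its neighbour, the receptor is cut, and its inner part enters the nucleus, where it joins the DNA-binding protein RBPJ and switches on genes such as Hes1 and Hes5. In the embryonic cortex these Hes repressors hold radial glia, the dividing stem cells, in the progenitor state, while cells that start to become neurons carry Dll1 and Dll3.

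Hes5 is a known target of Notch signalling and Lfng a known target in the forming somites. The stretches below are shown because, of the 9 genes with a promoter window, only these 2 held the core motif of RBPJ. They are those parts of the Hes5 and Lfng promoter windows that hold TGGGAA, the core of the motif bound by RBPJ, or its complement TTCCCA. They come from RefSeq on the build GRCm38.p6, are printed along the strand of the gene, which is the plus strand for both, and have the motif in capitals. Counted at the motif, the first of each pair begins 226 bases (Hes5) and 135 bases (Lfng) before the start on which its promoter window was set. The second begins 82 and 108 bases before that start. For Lfng this start is the first base of the RefSeq gene, 140607341. The RefSeq gene of Hes5 begins earlier, at base 154960626, so both Hes5 stretches lie inside the annotated gene.
Hes5, chr4:154960685-154960714: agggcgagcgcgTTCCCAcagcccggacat
Hes5, chr4:154960829-154960858: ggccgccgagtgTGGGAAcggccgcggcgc
Lfng, chr5:140607194-140607223: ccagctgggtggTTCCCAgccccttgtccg
Lfng, chr5:140607221-140607250: ccgtatcccacgTGGGAAggagagatctcc

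Windows of 250 bases before to 50 bases after a start were found for 9 of the 10 genes, all but Hes1, and numbered 11. Searched on both strands, 2 of the 11 windows held TGGGAA, those of Hes5 and Lfng, each with 2 matches that do not overlap. Of the 32851 windows of all genes, 25.6% held at least 1 match and 3.79% held 2 or more. The 6-letter motif CACNAG, the N box bound by Hes proteins, was found in 6 of the 11 windows, each of a different gene, against 42.5% of all windows. A match of letters is a description of the sequence and shows no binding.

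The arrays of both strains differed in quality. Between 17998 and 20997 probes had a value on an array, and 7.73% ± 2.72 of probes lacked one on the MF1 arrays against 14.6% ± 2.24 on the C57 arrays (SD, n = 6 arrays each). The SD of the ratios, estimated from the median absolute deviation, ran from 0.38 to 0.64 on MF1 and from 0.64 to 0.88 on C57 arrays. After the ratios were turned to rostral over caudal, both arrays of a pool correlated across probes at 0.043 to 0.24 (Spearman) in MF1 and at -0.30 to -0.13 in C57, so dye-dependent differences were large in C57. The gap between both arrays of a pool had a median over the tested features of 0.42 in MF1 and 0.76 in C57. Which end a positive ratio stands for was inferred and is likely, since the labels do not name the numerator dye. With Cy5 over Cy3, Nr2f1, a factor known to be higher caudally, lay below 0 in 6 of 6 pools (-1.14 ± 0.57, SD, n = 6), and Etv5 and Spry2, known rostral genes, lay above 0 in 6 of 6 (0.54 ± 0.054 and 0.50 ± 0.19). Emx2, a further patterning factor of the neocortex, had no common side (0.091 ± 0.27, above 0 in 3 of 6 pools). With the other convention every sign turns.

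Notch2, 1 of the receptors, had the most one-sided ratio of all 10 genes, with more RNA caudally. Its ratios were -0.26, -0.17 and -0.34 in MF1 pools 1 to 3 and -0.89, -1.74 and -1.68 in C57 pools 1 to 3. All 6 pools lay below 0, and the strains did not overlap. The mean was -0.85 ± 0.71 (SD, n = 6 pools), which is 1.8-fold more RNA caudally, with 1.2-fold in MF1 and 2.7-fold in C57. On single arrays the ratio was -0.47, -0.305 and -0.57 in MF1 and -1.10, -2.46 and -2.01 in C57 with rostral RNA in Cy3. With rostral RNA in Cy5 it was -0.062, -0.032 and -0.10 in MF1 and -0.68, -1.02 and -1.345 in C57. Notch2 was therefore below 0 on 12 of 12 arrays, with larger ratios in the Cy3 orientation of every pool. Of the 10622 tested features with a value on every array, 0.48% had 1 sign on all 12, and of the 8 genes described here with such values 1 did.

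In limma on pool means, adjusted over all 14418 features, Notch2 did not pass over both strains (adjusted p = 0.319, 95% interval of the log2 ratio -1.19 to -0.50). It did not pass in C57 either (adjusted p = 0.177), where its ratio was below that of all but 0.812% of features. A limma fit of all 12 arrays, with pool as random block, gave Notch2 the same ratio and an adjusted p of 0.0214 with 1 dye term for all arrays and of 0.0388 with a dye term for each strain; the second of these was chosen after seeing the data. In C57 alone the adjusted p of these array fits was 0.0187 and 0.0321. Those fits count the dye-swapped arrays of a pool, which are technical repeats, as replicates. With 1 dye term they count as almost independent, at a correlation of 0.00624. With a dye term for each strain they count as partly independent, at 0.241. The adjusted p of these fits therefore does not measure the spread between pools alone.

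Most markers of tissues beside the neocortex also had ratios below 0, in 7 of 8 genes of choroid plexus and cortical hem and in 8 of 10 of meninges and mesenchyme, with 3 of each below 0 at an unadjusted p under 0.05, beside 8.98% of all features in either direction, and 0 at the adjusted one (limma). The genes of choroid plexus and hem, tissues at the midline edge of the cortex, had medians from -0.20 to -0.069 in the MF1 pools and from -0.59 to -0.12 in the C57 pools. Among them Ttr, the transport protein of choroid plexus, was at -0.92 ± 1.085 (SD, n = 6), with C57 pool 1 alone above 0 at 1.19. Lmx1a, a factor of the hem, was at -1.33 ± 1.06 (n = 4) and the water channel Aqp1 at -0.61 ± 0.70 (n = 6). Rspo2 of the same group went the other way at 0.55, the mean of the strain means (n = 5), and was above 0 in 4 of 5 pools. The genes of meninges and mesenchyme had medians from -0.15 to 0.031 in the MF1 pools and from -0.44 to -0.29 in the C57 pools. The medians of the strains thus did not overlap, beside 9.46% of 10596 single features. How often medians of such groups of genes do not overlap was not counted. Col1a1, a collagen, had means of 0.076 in MF1 and -0.89 in C57, the factor Twist2 of -0.072 and -0.82, and the matrix protein Vtn of 0.11 and -0.996. Only these 3 of the 10 had a strain difference at an unadjusted p under 0.05 (limma), beside 6.1% of all features. Foxd1, Aldh1a2 and Twist1 had C57 means above 0, at 0.23, 0.12 and 0.015. The part of these cells in the ratio of Notch2 was not tested.

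The receptor Notch1 had no common direction, with ratios of 0.41, 0.11 and -0.23 in the MF1 pools and -0.51, -0.65 and 0.36 in the C57 pools. Its mean was -0.085 ± 0.45 (SD, n = 6; limma, adjusted p = 0.902), and the 95% interval of -0.49 to 0.32 holds differences of either sign. Notch3, a receptor best known from the muscle cells of vessels, had ratios of 0.88, 0.36 and -0.030 in MF1 and of -0.33, 0.44 and 0.069 in C57. Its mean of 0.23 ± 0.42 did not pass (limma, adjusted p = 0.701). Within the same pools the ratio of Notch2 minus that of Notch1 ran from -0.11 in MF1 pool 3 to -2.04 in C57 pool 3 and was below 0 in 6 of 6 pools. This difference was looked at after the values were seen and was not tested.

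Of the ligands, Dll1, which signals to neighbouring progenitors, ran from -0.70 to 1.20 among the pools. Its ratios were 1.20, 0.22 and -0.43 in MF1 and -0.70, -0.22 and 0.68 in C57, so the strains overlapped and neither had a common sign. The mean was 0.13 ± 0.72 (SD, n = 6; limma, adjusted p = 0.903). In MF1 pool 1 both arrays agreed on a high Dll1 ratio, at 1.15 and 1.25. In C57 pool 2 they disagreed, at -1.54 with rostral RNA in Cy3 and 1.10 with rostral RNA in Cy5.

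Dll3, a Delta protein that does not activate Notch in neighbouring cells, had ratios of -0.62, -0.25 and -0.11 in MF1 and of 0.40 and -0.32 in C57 pools 2 and 3. It was below 0 on all 6 MF1 arrays, from -1.06 to -0.10, and on 2 of 5 C57 arrays. Its mean over strains was -0.14 (limma, adjusted p = 0.824, n = 5 pools). C57 pool 1 dropped out because 1 of its arrays had no value.

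Jag1, a ligand of the Jagged family, could not be tested, because 1 C57 pool had a value in both orientations and the fit needed 2. In MF1 its ratios were -0.18, -0.0945 and -0.54, below 0 on 6 of 6 arrays, with a mean of -0.27 ± 0.24 (SD, n = 3). In C57 pool 3 the arrays gave -7.37 and 1.05, which average to -3.16 and differ by 8.42. The array of C57 pool 2 with rostral RNA in Cy3 was at the ceiling of 16.61, caudal once turned, and was set to missing. The remaining C57 arrays with a value gave 2.42 in pool 1 and -1.31 in pool 2, so no rostral or caudal side could be read for Jag1 in that strain.

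Lfng, a Fringe enzyme that adds sugars to Notch and so tunes its answer to Delta and Jagged ligands, had pool means on opposite sides of 0 in the strains, but not on the arrays with rostral RNA in Cy3, whose means were 0.29 in MF1 and 0.26 in C57. With rostral RNA in Cy5 they were 0.32 and -1.77. The MF1 pools were at 0.14, 0.67 and 0.11 and the C57 pools at -1.66, -0.13 and -0.48. The strains did not overlap, with means of 0.31 ± 0.31 and -0.76 ± 0.80 (SD, n = 3 each). The C57 arrays did not agree, since pool 3 gave 1.82 with rostral RNA in Cy3 and -2.78 with rostral RNA in Cy5. In pool 1 both were below 0, at -1.06 and -2.26. Without C57 pool 1 the C57 mean was -0.31.

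Of the Hes factors, Hes5, a main effector of Notch in radial glia, was on the rostral side in C57, while its MF1 mean was near 0 and turned to -0.13 when arrays were not centred. The ratios were 0.013, 0.062 and 0.19 in the MF1 pools and 0.52, 1.27 and 0.89 in the C57 pools. With arrays centred, all 6 pools lay above 0 and the strains did not overlap. The C57 mean of 0.89 ± 0.38 (SD, n = 3) is 1.86-fold more RNA rostrally, and the MF1 mean was 0.088 ± 0.090. On single arrays the C57 values were 0.85, 1.42 and 0.68 with rostral RNA in Cy3 and 0.18, 1.12 and 1.10 with rostral RNA in Cy5. Hes5 was above 0 on 6 of 6 C57 and on 5 of 6 MF1 arrays. The gap between both arrays of a C57 pool was 0.47 on average for Hes5, beside 0.35 for Notch3 and 0.76 (Hes6) to 2.43 (Hes1) for the other genes tested. It did not pass in limma over both strains (0.49, adjusted p = 0.449) or in C57 (adjusted p = 0.242).

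Hes1, the other Hes repressor downstream of Notch, showed no such ratio. It was at 0.26, -0.056 and -0.0075 in MF1 and at -0.73, -0.16 and 1.80 in C57. The C57 pools spanned 0 widely, and the high value came from 1 array of pool 3 at 4.04, whose partner array gave -0.43. All 3 C57 arrays with rostral RNA in Cy3 were below 0 and all 3 with rostral RNA in Cy5 were above it, with means of -0.91 and 1.52. The mean of both strains was 0.19 ± 0.86 (SD, n = 6; limma, adjusted p = 0.877).

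Hes6, which is found in cells becoming neurons and counteracts Hes1, was at 0.22, 0.034 and 0.50 in MF1 and at 0.033, -0.030 and 0.58 in C57. It had the smallest spread over the 6 pools of the genes tested here, with a mean of 0.22 ± 0.26 (SD, n = 6; limma, adjusted p = 0.652, 95% interval -0.094 to 0.54). Its arrays followed the dye in both strains, with means of -0.16 and -0.19 with rostral RNA in Cy3 and of 0.66 and 0.58 with rostral RNA in Cy5.

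**Figure D1:**
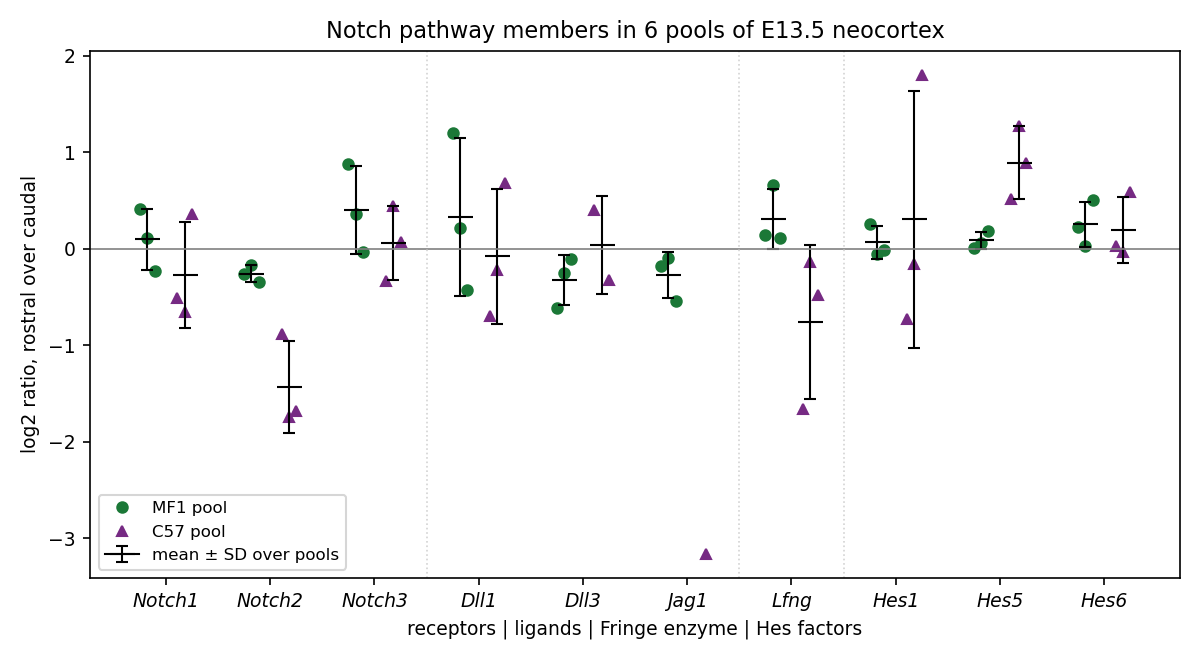
Log2 ratio of rostral over caudal RNA (vertical axis) of each of the 10 genes (horizontal axis, by role) in the 3 MF1 pools (green circles) and the 3 C57 pools (purple triangles), with black bars for the mean ± SD where a strain has more than 1 pool. Notch2 lies below 0 in all 6 pools and Hes5 above 0, both farther from 0 in C57, while Jag1 has a single C57 pool at -3.16.

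**Figure D2:**
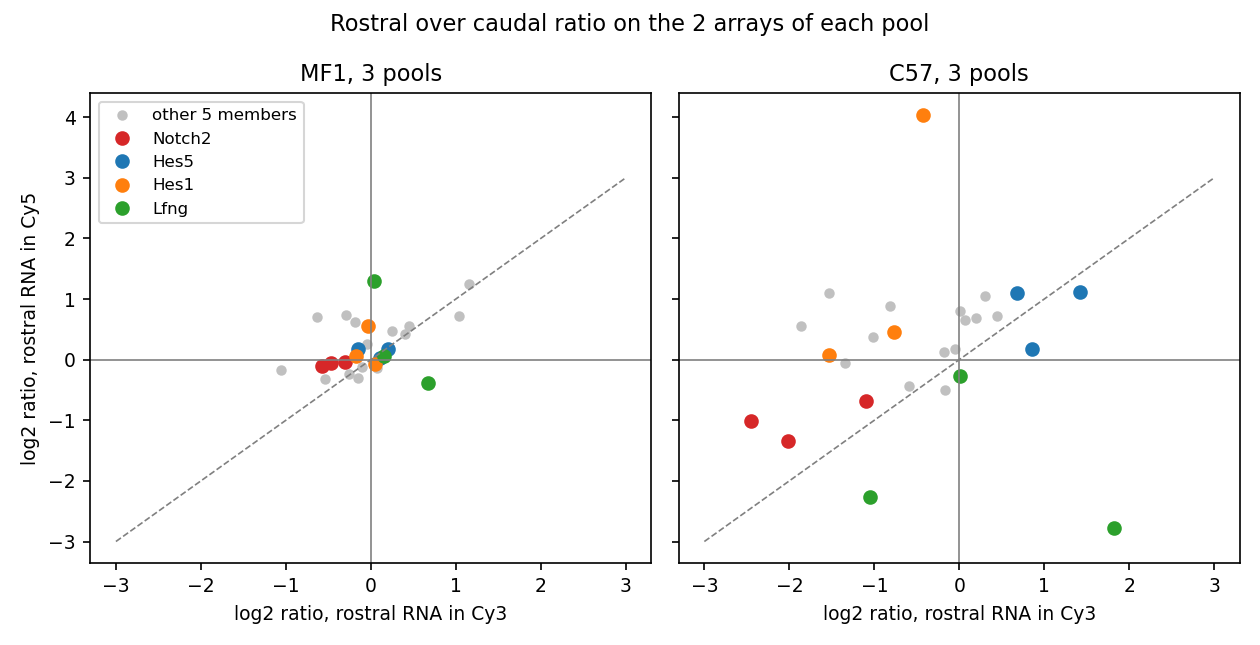
Log2 ratio of rostral over caudal RNA on the array with rostral RNA in Cy3 (horizontal axis) against the array with rostral RNA in Cy5 (vertical axis), 1 point per gene and pool, for MF1 (left) and C57 (right); Jag1 is left out and the dashed line marks equal values. All 3 C57 points of Notch2 lie at the lower left of 0 and all 3 of Hes5 at the upper right, while Hes1 is negative on one axis and positive on the other in each C57 pool.

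The strains were compared directly, as the C57 mean minus the MF1 mean. The ratio of Notch2 had a log2 difference of -1.18 (95% interval -1.87 to -0.49; limma, adjusted p = 0.694) and that of Lfng one of -1.06 (-2.08 to -0.042; adjusted p = 0.808). For Hes5 the difference was 0.80 (0.18 to 1.42; limma, adjusted p = 0.752). None of these 3 differences passed adjustment over all features. For the other 6 genes tested the 95% interval of the strain difference held 0, and for Dll1 it ran from -1.64 to 0.82. Of the 8 genes with a value in every pool, 3 had strains that did not overlap, Notch2, Hes5 and Lfng, against 9.46% of 10596 features. With all arrays scaled to a common spread the strain differences were -0.84 for Notch2, 0.59 for Hes5 and -0.89 for Lfng. That of Lfng was -0.030 on the arrays with rostral RNA in Cy3 and -2.10 on those with rostral RNA in Cy5, while those of Notch2 were -1.41 and -0.95 and those of Hes5 0.94 and 0.67. As every array carried a single strain, a difference between strains and one between the 2 sets of arrays cannot be told apart.

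**Figure D3:**
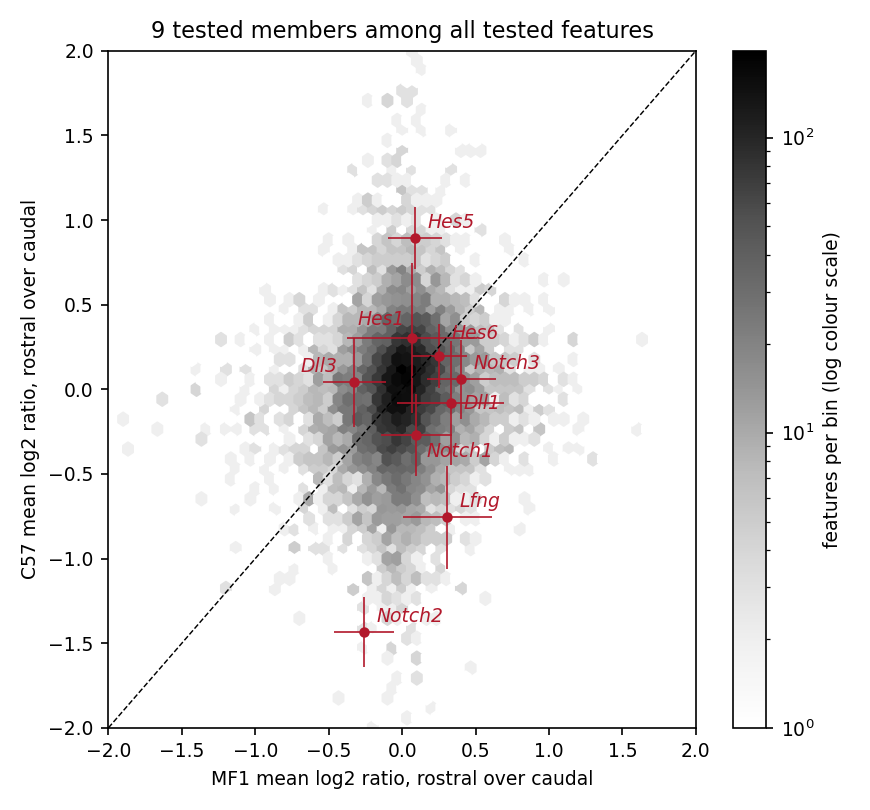
Mean log2 ratio of rostral over caudal RNA in MF1 (horizontal axis) and C57 (vertical axis) of the 9 genes tested (red, bars are ± the standard error of the limma fit) over the density of all 14418 tested features (grey, log colour scale); the dashed line marks equal ratios. Notch2 (-0.26 and -1.43) and Lfng (0.31 and -0.76) lie below the cloud's centre along the C57 axis and Hes5 (0.088 and 0.89) above it.

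Read against all features, counts were as follows. Over both strains 0 of the 14418 features passed at an adjusted p under 0.05 in limma on pool means, which is 0% (8.98% at an unadjusted p under 0.05), and 0 passed also in MF1, in C57 and for the strain difference. Limma on all 12 arrays passed 25 features over both strains with 1 dye term, with Notch2 among them. At an unadjusted p under 0.05 there were 2 of the 9 genes tested over both strains, Notch2 and Hes5, against 8.98% of all features. In MF1 there were 0 of 9 against 4.36%, and in C57 3 of 9, Notch2, Hes5 and Lfng, against 9.71%. For the strain difference there were 3 of 9, the same genes, against 6.1%. Lfng stayed under this threshold in C57 and for the strain difference in 1 of the 6 fits that left out a pool, that without C57 pool 2. For the strain difference Hes5 left it without MF1 pool 1 or without C57 pool 2. The same sign in every pool was found for 2 of 8 genes, Notch2 and Hes5, against 5.97% of 10596 features. The 9 genes had a median ratio of 0.13 over both strains beside 0.0091 over all features, and a median size of 0.22 beside 0.15. Since the genes were chosen with earlier results of these data known, these shares describe them and test nothing.

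Of the other genes of the pathway 41 were tested and 0 passed in limma on pool means; at an unadjusted p under 0.05 over both strains 3 lay above 0 (Mfng, Tle4 and Hes3) and 0 below, beside the 8.98% of all features given above. Among the other receptors, ligands and Fringe enzymes 5 of 6 tested genes lay above 0. Mfng, a second Fringe enzyme, was at 0.38, 0.52 and 0.47 in the MF1 pools and at -0.11, 0.12 and 0.10 in the C57 pools. Its MF1 mean of 0.46 was on the same side as that of Lfng and its C57 mean was 0.038; over both strains it was at 0.25 ± 0.25 (SD, n = 6; limma, adjusted p = 0.55). Dlk1, a Delta-like protein that lacks the receptor-binding domain of Delta, reached 3.31 in C57 pool 2 and had means of -0.11 in MF1 and 1.60 in C57. It did not pass (limma, adjusted p = 0.598).

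Enzymes that act on ligands and receptors had ratios between -0.16 and 0.27, with 7 of 12 above 0. The closest to a call were Poglut1, which adds glucose to Notch, at -0.16 ± 0.13 (SD, n = 6) with 6 of 6 pools below 0, and Psenen, a subunit of the gamma-secretase that cuts Notch, at 0.19 ± 0.26. Their adjusted p in limma was 0.675 and 0.677. In the group of the nuclear complex and its modulators 13 of 18 lay above 0, and Tle4, a co-repressor that works with Hes proteins, was at 0.31 ± 0.20 (adjusted p = 0.524). Rbpj, the DNA-binding partner of the receptors, was at -0.18 ± 0.20 with 5 of 6 pools below 0 (limma, adjusted p = 0.678). Among the other Hes and Hey factors 4 of 5 lay above 0, and Hes3 was at 0.38 ± 0.30, above 0 in 6 of 6 pools (limma, adjusted p = 0.507).

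**Figure D4:**
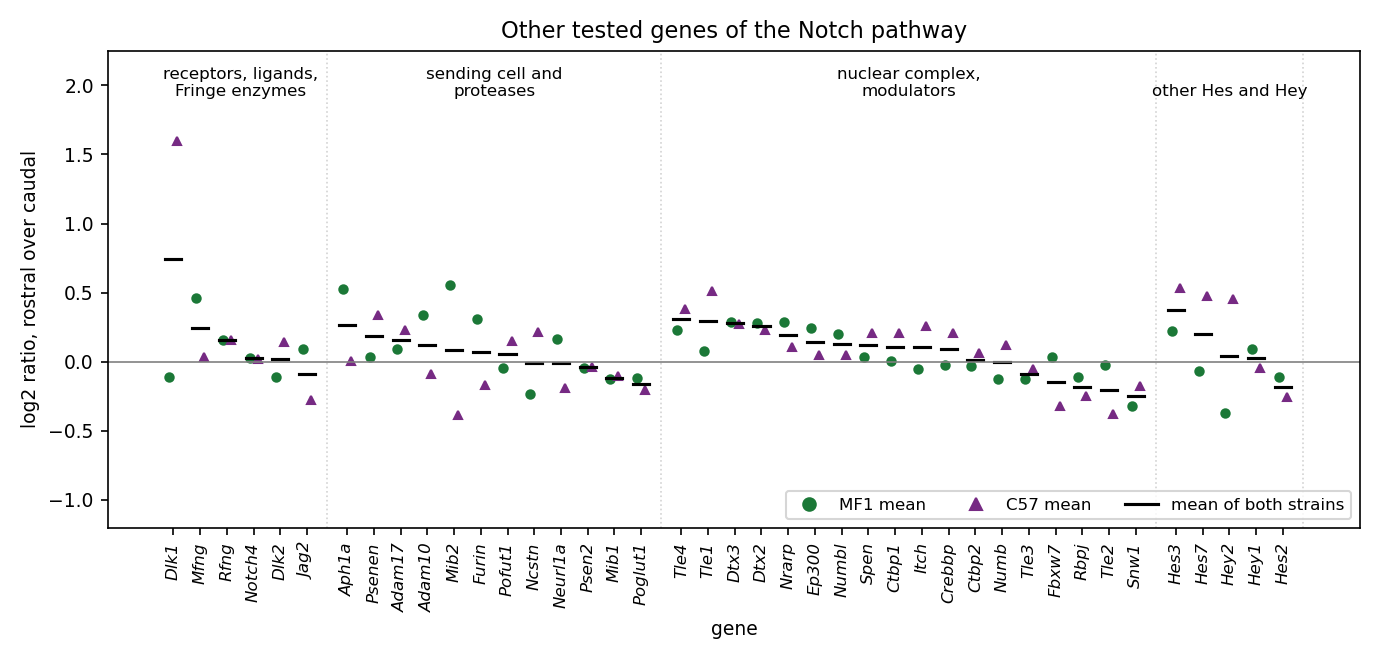
Log2 ratio of rostral over caudal RNA (vertical axis) of the other 41 tested genes of the Notch pathway (horizontal axis, in 4 groups), with the MF1 mean (green circles), the C57 mean (purple triangles) and the mean of both strains (black lines). The means of both strains lie between -0.25 for Snw1 and 0.75 for Dlk1, and Dlk1 has the largest gap between the strains.

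Genes of the cells that Notch acts on had medians near the 0.0091 of all features. Of the 12 tested proneural and neurogenic genes, which Hes factors repress or which mark cells leaving the progenitor state, 9 lay above 0, with a median of 0.082 and pool medians from 0.0058 to 0.15. Insm1, a factor of newly born progenitors of neurons, was at 0.31 ± 0.17 and above 0 in 6 of 6 pools (SD, n = 6; limma, adjusted p = 0.524). Neurog2, which switches on Dll1, was at 0.28 ± 0.52. Of 13 radial glia genes 9 lay above 0 with a median of 0.033, among them Cdh2 at 0.49 ± 0.24 and Pax6 at 0.40 ± 0.18, while the endothelin receptor Ednrb was at -0.40 ± 0.31. The 12 neuronal genes had a median of 0.034, with the transcription factor Bcl11b at 0.41 ± 0.24. None of these genes passed over all features (limma, adjusted p of 0.445 or more).

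Notch receptors and ligands are also found in blood vessels. The 10 tested endothelial genes had a median of -0.020 and pool medians from -0.14 to 0.015, with Icam2, an adhesion protein, at -0.79 ± 1.20 (SD, n = 6). The means of Icam2 were -0.042 in MF1 and -1.535 in C57, where pool 1 was at -3.12. The 4 tested genes of mural cells, the muscle cells and pericytes of vessels, had pool medians from -0.87 in C57 pool 2 to 0.21. Among them Acta2 was at -0.38 ± 0.65, with means of 0.06 in MF1 and -0.83 in C57. Rgs5, a second mural gene, went the other way at 0.17 ± 0.20 (SD, n = 5), above 0 in 4 of 5 pools. Microglial genes had a median of 0.068 over 6 genes, with Fcer1g at 0.34 ± 0.48 (n = 5). Fcer1g was above 0 in 2 of 5 pools, with means of -0.089 in MF1 and 0.76 in C57. Red blood cell genes had a median of -0.052 over 5, with Gata1 at 0.41 ± 0.19 (n = 5). Where n = 5 here, the ratio is the mean of the strain means and the SD is that over the pools. Of the 7 tested genes that mark neocortex 6 lay above 0, and Lhx2 was the exception at -0.50 ± 0.13. How much of each cell type a pool held cannot be read from ratios.

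Genes whose 6 pool values lay nearest to those of the 2 one-sided genes were sought among 8878 other named genes, by the root mean square difference of log2 ratios. For Notch2 they were the transcript 4930556J02Rik (0.24), Vps9d1 (0.33) and Olfr57 (0.35), an olfactory receptor. For Hes5 they were Atp6v0a2, a subunit of the proton pump (0.12), Atp1b3, a subunit of the sodium pump (0.18), and Camsap3, which binds microtubule ends (0.18). All 6 had C57 means above 0.82 in size and MF1 means below 0.39 in size, which follows from their choice by nearness to these pool values.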

How the data were processed

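The deposited values were log2 ratios between the dyes of each array, as read from the values (signed, around 0, with a ceiling of 16.61); of background correction, normalization and numerator dye the sources used here say nothing. The submitters' design text names SMART amplification of the cDNA before labelling and at least 2 embryos per pool. Members and gene lists were chosen with earlier results of these data known.

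Missing values included 701 at the ceiling. Each array was centred on its median (array medians ran from -0.41 to 0.475), and arrays with rostral RNA in Cy3 were turned in sign, assuming ratios of Cy5 over Cy3. That dyes were exchanged was checked by correlating the deviations of a pool's arrays before turning, which gave -0.35 to -0.15 (Spearman) in 5 pools and 0.00090 in C57 pool 3. The arrays of a pool were averaged where both had a value, and probes of 1 gene were averaged. Features with at least 2 pools per strain (14418) entered a model of 1 mean per strain (lmFit and eBayes of limma 3.58.1, R 4.3.3) with Benjamini-Hochberg adjustment at 0.05. The script was tested on simulated data whose noise was drawn separately for each array, with no spread shared by the arrays of a pool. At the adjusted threshold 71% of 100 changes of 1 in log2 and 96% of 100 changes of 2 passed. So did 17 features without a change. Separate litters for the pools of 1 strain are not stated in the labels, so p-values measure only the pool-to-pool spread, which may be technical. No spot intensities were used, so signal over background is unknown and the number of arrays limits the precision.

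All members are named. From the other lists the text names genes at an unadjusted p under 0.05 over both strains or for the strain difference, or else the 2 of smallest p. Dlk1, Rbpj, Snw1, Neurog2, Neurl1a, Rspo2, Foxd1, Aldh1a2, Twist1 and Emx2 fall outside this rule, as do the direction genes Nr2f1, Etv5 and Spry2. All of these were named after their values were seen.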

Additional observations from a re-analysis of the deposited data

Results flagged for a closer look

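Within 6 arrays of a strain, which include both dye orientations of each pool and are no independent replicates, a gap rule (Dixon's test at its 95% critical value) marked 3 of 20 sets of arrays. Chance marks about 1 in 20 such sets. The Dll3 ratio of MF1 pool 1 with rostral RNA in Cy3 was -1.056, and the nearest other array was at -0.26. The Hes1 ratio of MF1 pool 1 with rostral RNA in Cy5 was 0.556, and the nearest was 0.066. The Hes1 ratio of C57 pool 3 with rostral RNA in Cy5 was 4.038, and the nearest was 0.45.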

How the results depend on the processing

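Notch2 stayed below 0 and Hes5 above 0 over both strains and in C57 in every setting run. Notch2 ran from -1.15 to -0.54 and Hes5 from 0.30 to 0.58 over both strains, and of the 9 receptor, ligand, Lfng and Hes genes tested only Notch2 passed in a setting run, that is in both fits of the 12 arrays (adjusted p of 0.0214 and 0.0388, limma). Over both strains 25 and 21 features passed in the 12-array fits with 1 dye term and with a dye term for each strain, and 5 with features complete in 6 pools. In MF1 3 passed with 1 dye term. In C57 11 and 9 passed in the 12-array fits, 188 with rostral RNA in Cy3 only and 118 with rostral RNA in Cy5 only; the cause was not tested. At an unadjusted p under 0.05 over both strains there were 2168 features with arrays not centred, 2554 with Cy3 only and 2592 with Cy5 only in place of 1295, and between 798 (without MF1 pool 1) and 1325 when a pool was left out. Without centring, 6.64% of these lay on the rostral side, against 48.3% with it, and the median feature sat at -0.18.

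Signs turned in some comparison of each gene tested except Notch2, also where the main value was as far from 0 as the -0.76 of Lfng in C57. With arrays not centred Dll1 was at -0.063 and Hes1 at -0.0033 over both strains, Notch1 at -0.118, Hes1 at -0.149 and Hes5 at -0.126 in MF1, and Notch3 at -0.103 and Dll3 at -0.199 in C57. In the 12-array fits Dll3 in C57 was at -0.118 and -0.087. With rostral RNA in Cy3 only, Dll1 was at -0.36, Hes1 at -0.481, Hes6 at -0.172 and Lfng at 0.273 over both strains, Hes1 at -0.053 and Hes6 at -0.159 in MF1, Notch3 at -0.0035, Dll3 at -0.707, Hes1 at -0.91, Hes6 at -0.186 and Lfng at 0.258 in C57, and the strain difference was -0.235 for Dll3 and -0.858 for Hes1. With rostral RNA in Cy5 only, Notch1 was at 0.192 and Dll3 at 0.202 over both strains, Notch1 at 0.257 and Dll1 at 0.701 in C57, and the strain difference was 0.13 for Notch1 and 0.182 for Dll1. The cause was not tested. When a pool was left out, ranges that held 0 were, over both strains, -0.242 to 0.011 for Notch1, -0.093 to 0.315 for Dll1 and -0.189 to 0.444 for Hes1. In MF1 they were -0.060 to 0.26 for Notch1, -0.106 to 0.709 for Dll1 and -0.0315 to 0.127 for Hes1. In C57 they were -0.131 to 0.255 for Notch3, -0.458 to 0.231 for Dll1 and -0.445 to 0.823 for Hes1. For the strain difference they were -0.788 to 0.027 for Dll1, -0.511 to 0.757 for Hes1 and -0.251 to 0.067 for Hes6.

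Pools of the 2 strains share numbers only: deviations of same-numbered pools correlated at -0.11, 0.049 and 0.0021. With the number as a replicate block 0 features passed for the strain difference, as without it, and Notch2 differed by -1.18. In all, 526 of 573 recomputed values of the genes kept their sign and their side of the adjusted threshold, 43 turned sign and 4, all of Notch2, newly passed.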

Other observations

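Notch1 and Dll1 had the same sign in each of the 6 pools, above 0 in MF1 pools 1 and 2 and in C57 pool 3 and below 0 in the other 3. In pool 2 of each strain this sign was that of a mean of arrays of opposite sign, for both genes. The arrays of C57 pool 2 gave -1.86 and 0.55 for Notch1 and -1.54 and 1.10 for Dll1, with rostral RNA in Cy3 and Cy5. Both arrays of each remaining pool had the same sign. Of the 8 genes with a value in every pool Notch1 and Dll1 were nearest to each other, with a root mean square difference of 0.41 in log2 ratio. Neurl1a, a ubiquitin ligase that acts on Notch ligands, was chosen after its values were seen and had the same signs, at 0.73, 0.29 and -0.53 in MF1 and -0.97, -0.22 and 0.63 in C57. The mean of Neurl1a was -0.012 ± 0.68 (SD, n = 6), so like both others it had no rostral or caudal side. How many of all features carried these signs was not counted. The signs in MF1 were not particular to these genes. Notch3 was at 0.88, 0.36 and -0.030 there and Neurog2 at 1.17, 0.30 and -0.45, with other signs in C57.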
